A study of Mus musculus with 12 samples.

Results

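Histones carry methyl and acetyl groups that are added and removed by opposing enzymes, and the SET domain methyltransferases, lysine demethylases, histone deacetylases (HDACs) and sirtuins were followed here across naive and germinal center (GC) B cells with and without miR-146a. Members were chosen by name and chromosome, with earlier results of these data known. They are the mouse gene symbols that begin with Kdm, Kmt2, Setd (Setdb included), Hdac or Sirt, and symbols on the sex chromosomes were left out. This gave 47 of the 24063 gene symbols of the expression table. Each was represented by its RefSeq transcript with the highest mean over the libraries. The rule used no measured difference between groups.

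RNA was sequenced from sorted spleen cells of C57BL/6 mice in 12 libraries, 3 for each of 4 groups. The groups were B-KO GC B cells, WT GC B cells, B-KO naive B cells and WT naive B cells. B-KO mice carried loxP-flanked miR-146a alleles (miR-146a fl/fl) together with CD21-cre, a Cre transgene driven by the promoter of a complement receptor of mature B cells, so deletion was confined by design to that lineage. The WT mice were their littermates, whose alleles at the floxed locus and at the transgene are not given further. GC B cells were sorted as B220+PNA+GL7+ cells 14 days after mice had been given sheep red blood cells (SRBCs) as antigen, and naive B cells as B220+ cells of unimmunized mice, a gate that holds every B220+ cell and not naive cells alone. Mice were 8 to 10 weeks old unless stated otherwise. Immunization and cell type therefore changed together, and every contrast of GC with naive B cells holds both.

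In naive B cells the genome is compact and the cell is at rest. In the GC, B cells divide fast, diversify their antibody genes and hold back the plasma cell program, in part through BCL6, a repressor that recruits HDAC-containing corepressor complexes. Methylation of histone H3 at lysine 4 (H3K4) marks promoters and enhancers in use, H3K36 methylation marks transcribed gene bodies, and H3K9 and H3K27 methylation mark silent chromatin. KMT2D, an H3K4 methyltransferase of enhancers, is among the genes most often mutated in human lymphomas of GC origin.

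miR-146a is a microRNA whose mature strand pairs through its seed with sites in 3′ untranslated regions (UTRs) of messenger RNAs. It is shown because it is the deleted gene, with the seed (bases 2 to 8) in capitals, from RefSeq (GRCm38.p6, chr11:43374435-43374456, minus strand).
mmu-miR-146a-5p: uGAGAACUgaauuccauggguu
Its precursor gave 0, 0 and 1 reads in B-KO GC libraries, 0, 4 and 0 reads in WT GC libraries, 0 reads in each B-KO naive library and 2, 0 and 0 reads in WT naive libraries, which is too few to check the genotype labels.

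Values are RPKM, reads per kilobase of transcript, scaled by the authors to 10000000 reads per library, which makes them larger than RPKM on the usual scale. Values of a group are in the order of replicates 1, 2 and 3. Each library held 22945634 to 39118224 transcript-assigned reads, so that 1 read on a transcript of 1 kb was worth 0.256 to 0.436 RPKM. Of the 47 members, 46 reached 1 RPKM in at least 3 libraries and were tested, and each of these had at least 42 reads in every library. The exception was Kdm4d, an H3K9 demethylase, at 1.67, 0.81 and 1.154 RPKM in B-KO GC against 0.83, 0.53 and 0.66 RPKM in B-KO naive B cells, and 0.65, 0.67 and 0.83 RPKM in WT GC against 0.49, 0.43 and 0.12 RPKM in WT naive B cells. GC B cell markers separated the sorts. The summed RPKM of 10 such genes was 8779 to 12881 in B-KO GC libraries and 10443 to 12983 in WT GC libraries, against 513 to 1829 in B-KO naive libraries and 308 to 574 in WT naive libraries. None of the 10 was at 0 in any library. The 7 B lineage genes were high throughout, at a sum of 25555 to 42993 RPKM. Among markers of other cell types, the sum of 6 plasma cell genes was 3979.7 to 6327 RPKM in B-KO GC, 3524 to 5329 in WT GC, 1752 to 4451 in B-KO naive and 886 to 1499 in WT naive libraries, most of it Igj except in the WT naive libraries. Of these 6 genes, 1 was called higher and 1 lower in B-KO GC B cells (median log2 fold change -0.10), and 3 higher and 1 lower in WT GC B cells (0.00). The sum of 9 T and NK cell genes was 362 to 733 RPKM in B-KO GC, 557 to 702 in WT GC, 267 to 303 in B-KO naive and 195 to 294 in WT naive libraries, and Lck alone made up most of it in every library. Of the 9, 2 were higher and 3 lower in B-KO GC B cells (median -0.60), and 2 higher and 4 lower in WT GC B cells (median -0.57). Of 8 red cell and platelet genes tested, 4 were lower and none higher in each genotype. Their part in the differences given here was not tested.

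Some libraries stood apart from their group. B-KO GC replicate 2 and WT GC replicate 3 had the lowest sums of 20 cell cycle genes among the GC libraries (11665 and 10569 RPKM, the other GC libraries 15457 to 17509) and the highest sums of 9 naive B cell genes (4593 and 3951 RPKM, the other GC libraries 2657 to 3200). Y-linked transcripts summed to 850.0, 674 and 1180.2 RPKM in B-KO GC replicates 1 and 2 and WT GC replicate 3, and to at most 5.96 RPKM in the other 9 libraries. Male mice were thus among the GC donors. Sex was balanced neither between GC and naive libraries nor between B-KO and WT GC libraries. Xist, an X-linked transcript of female cells, was at 187 RPKM in B-KO GC replicate 2, which thus held both kinds of transcript. It was at 0.454 RPKM in B-KO GC replicate 1, 0.93 RPKM in WT GC replicate 3 and 854 to 1436 RPKM in the other 9 libraries. B-KO naive replicates 1 and 2 had the highest sums of GC genes (1829 and 917 RPKM) and of cell cycle genes (3481 and 2503 RPKM) among the naive libraries. Without these 2 libraries B-KO naive replicate 3 was alone in its group, so only an effect size is given. The median log2 fold change of the members in B-KO was then -0.088, against -0.0945 with all libraries. In the 2 libraries, the medians of the 12 members called higher and the 17 called lower in GC B cells of both genotypes differed from the WT naive mean by -0.05 to 0.02 on the log2 scale. These members were chosen by calls that used the same libraries, so values near that mean follow in part from the choice. The part of these GC and cell cycle transcripts in the B-KO values was not tested.

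The enzymes were mostly well expressed. The median over the 46 tested members of their mean RPKM was 147 (quartiles 82.7 and 242), against 67.9 (quartiles 12.8 and 177) over all 13704 genes tested. Deacetylases held the top and the bottom of the order. Sirt7, a nucleolar sirtuin, ranked first in naive B cells, at a mean of 531 ± 23.7 RPKM in B-KO and 538 ± 32.9 RPKM in WT, followed by Hdac10 at 431 ± 30.4 and 451 ± 27.9 RPKM (SD, n = 3 each). In GC B cells Hdac7, a class IIa enzyme, ranked first at 439.8 ± 19.7 RPKM in B-KO and 479.8 ± 32.9 RPKM in WT (SD, n = 3 each). Hdac11, the sole class IV enzyme, was the lowest tested member in GC B cells, at 7.98 ± 0.76 RPKM in B-KO and 6.43 ± 0.21 RPKM in WT, and Hdac4 was the lowest in naive B cells, at 22.7 ± 2.45 RPKM in B-KO and 19.9 ± 1.87 RPKM in WT (SD, n = 3 each). Neighbors in these orders were mostly not separable. Of the 46 pairs of adjacent members, the libraries overlapped in 38 pairs in B-KO GC, 39 in WT GC, 35 in B-KO naive and 38 in WT naive B cells.

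The first question was how the enzymes differ between GC and naive B cells within each genotype. No member rose as much as the deepest falls. Members called lower outnumbered those called higher in B-KO and were about as many in WT, and every change of at least 2-fold was a fall, namely 6 members in B-KO (Kdm5b, Setd1b, Hdac11, Kdm7a, Setd4 and Sirt5) and 6 in WT (Hdac5 in place of Sirt5). Changes of at least 2-fold in either direction were called for 2723 of all 13704 genes in B-KO and 3303 in WT. Falls were not counted apart over all genes, so the direction of the members' changes is not set against them. The highest fold changes were those of Setd8 (0.68 ± 0.12 in B-KO and 0.86 ± 0.12 in WT on the log2 scale, ± SE) and Hdac1 (0.68 ± 0.07 and 0.84 ± 0.07), followed by Kdm8 (0.68 ± 0.15 and 0.68 ± 0.15), and the order among these 3 is within their errors. By limma on log2(RPKM + 1) with Benjamini-Hochberg adjustment over all genes, at a threshold of 0.05, 12 members were higher and 20 lower in B-KO GC than in B-KO naive B cells. Together these were 69.6% of the 46 tested, against 57.5% of all genes tested (30% higher, 27.5% lower). In WT, 17 were higher and 18 lower in GC B cells, an order that turned to 16 higher and 15 lower under the strict reading of the name rule (without Kmt2a, Kmt2c, Kmt2d and Kmt2e) and was 16 and 16 without WT GC replicate 1. The 17 and 18 together were 76.1% of the members against 62% of all genes (31.7% higher, 30.2% lower). By the weaker measure of libraries that did not overlap, 14 members were higher and 21 lower in B-KO GC B cells (33.4% and 30.7% of all genes), and 17 higher and 19 lower in WT GC B cells (34.2% and 33.1% of all genes). The median log2 fold change of the members was -0.09 in B-KO and -0.01 in WT, against 0.02 and 0.01 over all genes.

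RPKM is relative to the other RNA of a library. In these bulk samples, fewer cells that express a gene and less of its RNA per cell cannot be told apart.

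**Figure D1:**
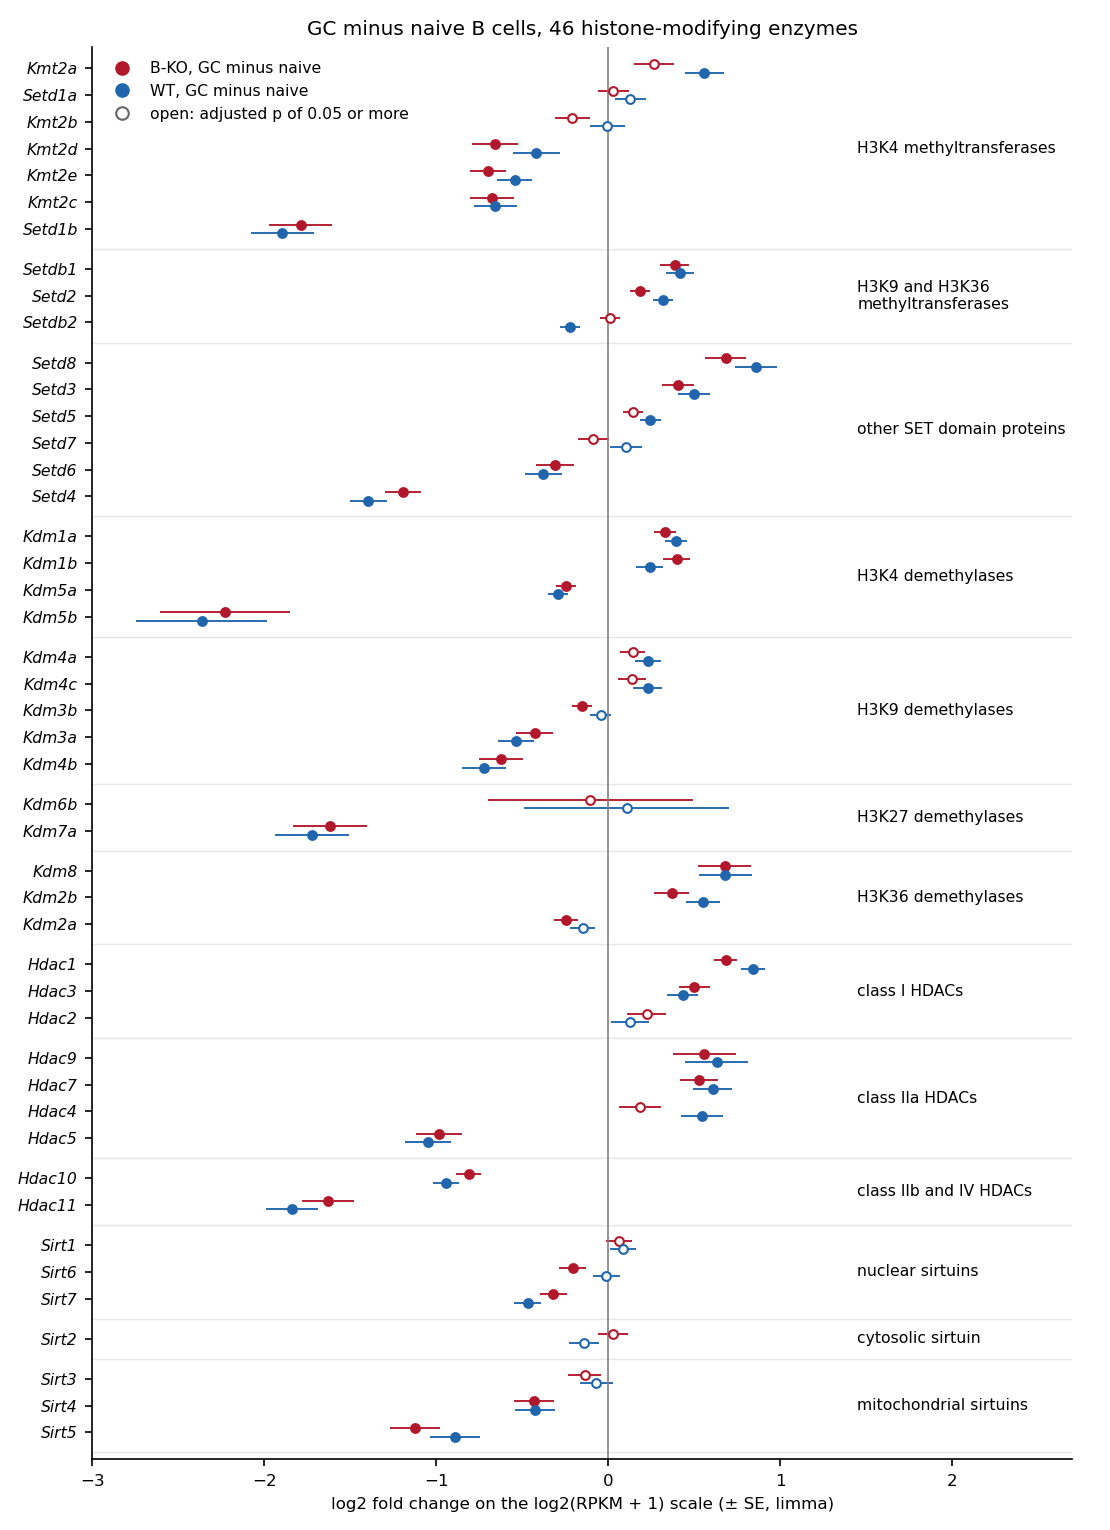
Log2 fold change (x axis, log2(RPKM + 1) scale, bars ± SE from limma) of GC minus naive B cells for the 46 tested enzymes (rows, grouped by class), in B-KO (red, upper point) and WT (blue, lower point). Filled points passed the limma test. The points of the 2 genotypes lie close together, from Kdm5b at -2.23 (B-KO) and -2.37 (WT) up to Setd8 at 0.68 and 0.86.

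The 2 genotypes gave like values from separate libraries. Of the 46 members, 42 had the same sign in B-KO and WT, with a correlation across members of r = 0.984, and 12452 of 13704 genes had the same sign with r = 0.931. Genes are not independent replicates, and the correlation is given as a description. In both genotypes 12 members were called higher and 17 lower, none was called in opposite directions, and 8 were called in neither, against 27.3% of all genes higher in both, 25.1% lower in both, 0 opposite and 33% in neither. The 8 were Sirt1, Sirt2, Sirt3, Kmt2b, Setd7, Kdm6b, Hdac2 and Setd1a. The remaining calls were made in 1 genotype. Kdm2a, Kdm3b and Sirt6 were called lower in B-KO alone, Setdb2 was called lower in WT alone, and Kdm4a, Kdm4c, Setd5, Hdac4 and Kmt2a were called higher in WT alone. For none of these 9 did the difference between the genotypes pass its own test, which is given below with the interaction.

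Of the 7 members grouped as H3K4 methyltransferases, 4 were called lower in both genotypes and none higher in both, against 25.1% of all genes tested called lower in both. Kmt2e, among the 4, has no established activity on H3K4, and without it the count was 3 of 6. Setd1b, a catalytic subunit of a COMPASS complex that deposits H3K4 methylation (mm10, chr5:123142193-123168630), had the deepest fall. Setd1b was at 24.4, 34.0 and 23.3 RPKM in B-KO GC against 91.5, 91.3 and 103 RPKM in B-KO naive B cells, and at 23.5, 20.5 and 32.2 RPKM in WT GC against 87.8, 111 and 89.5 RPKM in WT naive B cells. The GC and naive libraries did not overlap. The log2 fold change was -1.79 ± 0.18 in B-KO and -1.89 ± 0.18 in WT (± SE, limma adjusted p = 2.41e-05 and 9.11e-06). Its close relative Setd1a was not called in either genotype (0.03 ± 0.09 and 0.13 ± 0.09), and 59.8% of the exon bases of its transcript are shared with other genes in the GENCODE annotation, nearly all of them with Gm49388, so its counts are uncertain.

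Kmt2d, the enhancer methyltransferase named above (chr15:98831669-98871205), was lower in GC B cells as well. The Kmt2d libraries of B-KO mice read 176, 224 and 186 RPKM in GC and 353, 299.7 and 273 RPKM in naive B cells, and those of WT mice 217, 200.03 and 268 RPKM in GC and 275, 333 and 304 RPKM in naive B cells. Every GC library lay under every naive library of its genotype, by a narrow margin in WT. The fold change was -0.66 ± 0.14 in B-KO (adjusted p = 0.00173, limma) and -0.42 ± 0.14 in WT (adjusted p = 0.0196). The WT call was lost when WT GC replicate 1, WT GC replicate 2 or WT naive replicate 2 was left out (limma, adjusted p = 0.0606 to 0.0804). With B-KO naive replicate 3 alone as the B-KO naive group, the B-KO fold change was -0.49. Kmt2c is its paralog with the same kind of function. In B-KO mice Kmt2c measured 88.3, 114 and 100.05 RPKM in GC and 180.1, 155 and 149 RPKM in naive B cells, and in WT mice 109, 98.1 and 136 RPKM in GC and 178, 184 and 176 RPKM in naive B cells. Kmt2c and Kmt2e, a family member for which no H3K4 methyltransferase activity is established, both fell, by 0.67 and 0.70 in B-KO and by 0.66 and 0.54 in WT on the log2 scale. Of the Kmt2e exon bases, 13.4% lie over Srpk2 on the other strand, and reads of both strands were counted.

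Kmt2a (MLL1), needed for Hox gene expression in blood cells, went the other way. Kmt2a was at 388, 377 and 402 RPKM in B-KO GC against 379, 308 and 289 RPKM in B-KO naive B cells, and at 449, 415 and 516 RPKM in WT GC against 284, 353 and 298 RPKM in WT naive B cells. In WT the GC libraries lay above the naive ones, and in B-KO the GC and naive libraries overlapped through B-KO naive replicate 1. The fold change was 0.27 ± 0.12 in B-KO (adjusted p = 0.0708, limma) and 0.56 ± 0.12 in WT (adjusted p = 0.00154). Without B-KO naive replicate 1 the B-KO value was 0.38 with adjusted p = 0.014. The difference between the genotypes in this fold change, -0.29 ± 0.16, did not pass the test (limma, adjusted p = 1). Kmt2b gave -0.21 ± 0.10 in B-KO and -0.01 ± 0.10 in WT, neither called.

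Genes for the partner proteins of these methyltransferases included none that was called lower. Of 10 genes for COMPASS core subunits and MLL cofactors, 5 were higher and none lower in either genotype, with a median log2 fold change of 0.18 in B-KO and 0.27 in WT. Over all genes tested, 30% were called higher and 27.5% lower in B-KO, and 31.7% and 30.2% in WT. The list was chosen with earlier results of these data known. Psip1, which tethers MLL1 to chromatin, rose by 1.71 in B-KO and 2.09 in WT, and Paxip1, a subunit of the KMT2C and KMT2D complexes, by 1.24 and 1.35. Dpy30, Men1 and Wdr5, 3 subunits of COMPASS or MLL complexes, were the others called higher.

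Of the enzymes for H3K9 and H3K36 methylation, Setdb1 and Setd2 were higher in both genotypes, and Setdb2 gave 0.01 ± 0.06 in B-KO and -0.22 ± 0.06 in WT, where it was called. Setdb1, which lays down H3K9 trimethylation over retroelements (chr3:95323525-95357202), was higher in both genotypes. The Setdb1 libraries of B-KO mice read 158, 157 and 193 RPKM in GC and 128, 131 and 127 RPKM in naive B cells, and those of WT mice 184, 176 and 163 RPKM in GC and 127, 133 and 130.3 RPKM in naive B cells. No GC library overlapped a naive one. The fold change was 0.39 ± 0.08 in B-KO and 0.42 ± 0.08 in WT (limma, adjusted p = 0.00226 and 0.00118). Setd2, the enzyme of H3K36 trimethylation (chr9:110532597-110618633), was also higher. In B-KO mice Setd2 measured 288, 289 and 308 RPKM in GC and 267, 255 and 256 RPKM in naive B cells, and in WT mice 328, 313 and 348 RPKM in GC and 265, 274 and 252 RPKM in naive B cells. The groups did not overlap, but the B-KO difference was small, 0.18 ± 0.06 (adjusted p = 0.0199, limma), against 0.32 ± 0.06 in WT (adjusted p = 0.000725). The B-KO call was lost without B-KO GC replicate 3, B-KO naive replicate 2 or B-KO naive replicate 3 (adjusted p = 0.0583 to 0.0761), with limma voom (adjusted p = 0.05) and with quantile normalization (0.04, adjusted p = 0.633).

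Setd8 (also named Kmt5a, chr5:124439930-124462307) makes H4K20 monomethylation, a mark tied to the cell cycle, and was higher in GC B cells. Setd8 was at 169, 163 and 201 RPKM in B-KO GC against 121, 107 and 102 RPKM in B-KO naive B cells, and at 199, 199 and 156 RPKM in WT GC against 99.3, 110.1 and 93.5 RPKM in WT naive B cells. All 6 GC libraries were above all 6 naive ones. The adjusted p was 0.000621 in B-KO and 0.000104 in WT (limma). Setd3, an actin histidine methyltransferase, rose with it (0.41 ± 0.09 in B-KO, 0.50 ± 0.09 in WT). Setd5 gave 0.14 ± 0.06 in B-KO and 0.25 ± 0.06 in WT, where it was called, and Setd7, which methylates lysines of histone and other proteins, -0.09 ± 0.09 and 0.10 ± 0.09, not called. Setd6, which methylates the NFκB subunit RelA, was lower (-0.31 ± 0.11 in B-KO and -0.38 ± 0.11 in WT).

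Setd4 (chr16:93583461-93603815), a SET domain methyltransferase, had the smallest adjusted p of all members in each genotype. The Setd4 libraries of B-KO mice read 22.7, 22.4 and 21.3 RPKM in GC and 53.7, 48.3 and 53.7 RPKM in naive B cells, and those of WT mice 19.8, 20.5 and 16.8 RPKM in GC and 53.1, 53.8 and 47.8 RPKM in naive B cells. The GC libraries lay between 16.8 and 22.7 RPKM and the naive ones between 47.8 and 53.8 RPKM. The log2 fold change was -1.19 ± 0.11 in B-KO and -1.39 ± 0.11 in WT (adjusted p = 1.36e-05 and 3.12e-06, limma).

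The autosomal enzymes that remove H3K4 methylation did not all move the same way. The X-linked JmjC enzyme Kdm5c was not tested, and its values are given at the end. The 2 flavin-dependent enzymes, Kdm1a (LSD1) and Kdm1b (LSD2), were higher in GC B cells, and the 2 JmjC domain enzymes on autosomes, Kdm5a and Kdm5b, were lower, in both genotypes. In B-KO mice Kdm1a measured 205, 201 and 225 RPKM in GC and 166, 170.4 and 164 RPKM in naive B cells, and in WT mice 210.4, 208 and 206 RPKM in GC and 150.2, 154 and 171 RPKM in naive B cells. Kdm1a, a partner of the corepressor CoREST, thus rose by 0.33 ± 0.07 in B-KO and 0.39 ± 0.07 in WT on the log2 scale (chr4:136550533-136602723, limma adjusted p = 0.00132 and 0.000352), with no overlap of the libraries. Kdm1b rose by 0.40 ± 0.08 and 0.24 ± 0.08, and 10.1% of its exon bases lie over Dek on the other strand.

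Kdm5b (chr1:134560178-134632878) showed the largest difference of all members. Kdm5b was at 8.25, 16.9 and 6.73 RPKM in B-KO GC against 51.9, 47.9 and 49.8 RPKM in B-KO naive B cells, and at 6.51, 6.02 and 18.4 RPKM in WT GC against 53.9, 53.0 and 46.2 RPKM in WT naive B cells. The GC libraries stood far below the naive ones, and within GC the 2 libraries set apart above, B-KO GC replicate 2 and WT GC replicate 3, were the highest. The log2 fold change was -2.23 ± 0.38 in B-KO and -2.37 ± 0.38 in WT (adjusted p = 0.000514 and 0.000275, limma). Kdm5a fell by 0.25 in B-KO and 0.29 in WT on the log2 scale.

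The H3K9 demethylases gave 2 that fell in both genotypes, Kdm3a (-0.43 ± 0.11 in B-KO, -0.54 ± 0.11 in WT) and Kdm4b (-0.62 ± 0.13 and -0.72 ± 0.13). Kdm3b was called in B-KO alone (-0.15 ± 0.06 against -0.04 ± 0.06 in WT), and Kdm4a and Kdm4c were near 0.14 in B-KO and 0.23 in WT and were called in WT alone. Of the members grouped as H3K36 demethylases, Kdm2b, which brings a Polycomb complex to CpG islands, and Kdm8 rose. The activity of Kdm8 on H3K36 is not taken as established here. The Kdm8 libraries of B-KO mice read 61.8, 42.7 and 51.5 RPKM in GC and 28.5, 35.9 and 31.3 RPKM in naive B cells, and those of WT mice 66.1, 56.6 and 48.4 RPKM in GC and 34.8, 33.1 and 37.0 RPKM in naive B cells. Kdm8 (chr7:125444620-125462268) was higher in every GC library than in any naive one, by 0.68 ± 0.15 in B-KO and 0.68 ± 0.15 in WT (adjusted p = 0.00318 and 0.00267, limma). Kdm2b rose by 0.37 ± 0.10 and 0.55 ± 0.10, with 17.7% of its exon bases over Rnf34 on the other strand. Kdm2a, an H3K36 demethylase related to Kdm2b, gave -0.25 ± 0.07 in B-KO, where it was called, and -0.15 ± 0.07 in WT, where it was not.

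Kdm7a, a JmjC demethylase of H3K9 and H3K27 (chr6:39136620-39206773), fell in both genotypes. In B-KO mice Kdm7a measured 63.6, 118 and 69.3 RPKM in GC and 235, 256 and 256 RPKM in naive B cells, and in WT mice 72.0, 72.7 and 110.4 RPKM in GC and 288, 256 and 290.1 RPKM in naive B cells. The groups did not overlap. The log2 fold change was -1.62 ± 0.22 in B-KO and -1.72 ± 0.22 in WT (adjusted p = 0.000111 and 4.97e-05, limma). Again B-KO GC replicate 2 and WT GC replicate 3 were the highest of the GC libraries.

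Kdm6b (JMJD3), the H3K27 demethylase that inflammatory signals induce in macrophages (chr11:69398518-69413675), had no common level in GC B cells. Kdm6b was at 25.5, 144 and 34.6 RPKM in B-KO GC against 49.9, 53.6 and 60.2 RPKM in B-KO naive B cells, and at 41.1, 34.2 and 133 RPKM in WT GC against 50.5, 61.5 and 48.3 RPKM in WT naive B cells. The naive libraries lay within 48.3 to 61.5 RPKM. In GC B cells the same 2 libraries, 1 of each genotype, were more than 2 times higher than the naive ones, and the other 4 were below all naive libraries. With all libraries the fold change was -0.10 ± 0.60 in B-KO and 0.11 ± 0.60 in WT, neither called (adjusted p = 0.895 and 0.886, limma). With these 2 libraries left out the fold change was -0.85 in B-KO and -0.49 in WT. The libraries were chosen by these values, which fixes the sign, so these values are a description with no test. Of the macrophage and myeloid list, 13 of 14 genes were in the table and the summed RPKM was 663 to 1065 in B-KO GC libraries, 389 to 919 in WT GC libraries, 206 to 519 in B-KO naive libraries and 140 to 216 in WT naive libraries, with 1 gene at 0 in 1 B-KO naive library and none at 0 in the others. It was 1065 in B-KO GC replicate 2 and 919 in WT GC replicate 3, and 943 in B-KO GC replicate 1, where Kdm6b was at 25.5 RPKM. The sum mixes unlike genes. In these 3 libraries, in this order, C1qa was at 51.5, 41.6 and 116 RPKM, Lyz2 at 142, 134 and 25.7 RPKM and S100a9 at 196, 205 and 16.4 RPKM. Of the 13 genes, 4 were called higher and 0 lower in B-KO GC B cells (median 1.35), and 5 higher and 1 lower in WT GC B cells (median 0.96). The part of these cells, of the cell cycle and of sex in the Kdm6b values was not tested.

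**Figure D2:**
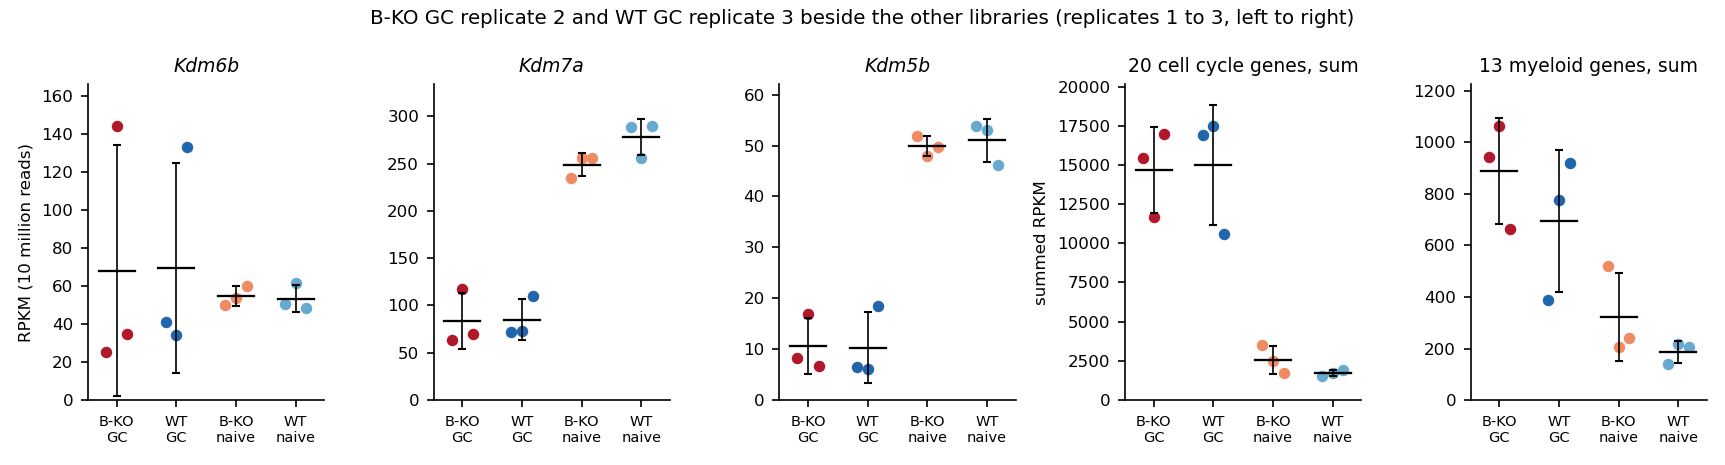
RPKM of Kdm6b, Kdm7a and Kdm5b and the summed RPKM of 20 cell cycle genes and 13 macrophage and myeloid genes (y axes, from 0) in each library of the 4 groups (x axis). Points are replicates 1 to 3 from left to right, bars the mean ± SD. B-KO GC replicate 2 and WT GC replicate 3 are, among the GC libraries, highest in the 3 demethylases (Kdm6b 144 and 133 RPKM) and lowest in the cell cycle sum.

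Of the 3 class I HDACs on autosomes, the catalytic units of nuclear corepressor complexes, 2 were higher in GC B cells of both genotypes and none was lower. Over all genes tested, 27.3% were higher in both and 25.1% lower in both, and 3 genes are too few to set against these shares. Hdac1 (chr4:129516104-129542646), the enzyme of the Sin3, NuRD and CoREST complexes, was the clearest. The Hdac1 libraries of B-KO mice read 219.5, 220.3 and 223 RPKM in GC and 143, 135 and 134 RPKM in naive B cells, and those of WT mice 231, 222 and 225 RPKM in GC and 113, 131 and 134 RPKM in naive B cells. The GC libraries were almost identical and all above the naive ones. The fold change was 0.68 ± 0.07 in B-KO and 0.84 ± 0.07 in WT (adjusted p = 2.32e-05 and 3.89e-06, limma). Hdac3 (chr18:37936971-37954988), the enzyme of the NCoR and SMRT complexes, rose in both genotypes too. In B-KO mice Hdac3 measured 343, 307 and 370.0 RPKM in GC and 230.3, 244 and 243 RPKM in naive B cells, and in WT mice 351, 347 and 287 RPKM in GC and 236, 257 and 234 RPKM in naive B cells. No GC library overlapped a naive one, and the fold change was 0.50 ± 0.09 in B-KO and 0.43 ± 0.09 in WT (adjusted p = 0.000758 and 0.00162, limma).

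Hdac2, the paralog of Hdac1 in the same complexes, was not called. Hdac2 was at 232, 220.3 and 255 RPKM in B-KO GC against 200.4, 207 and 197 RPKM in B-KO naive B cells, and at 231, 267 and 194 RPKM in WT GC against 213, 189 and 229 RPKM in WT naive B cells. The libraries overlapped in WT, where WT GC replicate 3 was low, and did not overlap in B-KO. The fold change was 0.22 ± 0.11 in B-KO (adjusted p = 0.106, limma) and 0.12 ± 0.11 in WT (adjusted p = 0.349). Without WT GC replicate 3 it was 0.22 in B-KO (adjusted p = 0.0466, through the shared spread) and 0.24 in WT (adjusted p = 0.0497), and with the Y-linked sum as a covariate 0.37 (adjusted p = 0.00551) and 0.26 (adjusted p = 0.0265).

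The class IIa enzymes, signal-dependent corepressors of MEF2 factors, split. Hdac7 (chr15:97792664-97814863), known for its role in early B cell identity, was higher in GC B cells. The Hdac7 libraries of B-KO mice read 462, 424 and 434 RPKM in GC and 282, 308 and 324 RPKM in naive B cells, and those of WT mice 498, 442 and 499 RPKM in GC and 257, 359.7 and 334 RPKM in naive B cells. Hdac9 (chr12:34371497-34528889) was higher as well but less evenly. In B-KO mice Hdac9 measured 196, 138 and 179 RPKM in GC and 83.2, 127 and 143 RPKM in naive B cells, and in WT mice 181, 204 and 192 RPKM in GC and 114, 131 and 127 RPKM in naive B cells. The Hdac7 libraries did not overlap, while for Hdac9 B-KO GC replicate 2 lay under B-KO naive replicate 3. The fold change of Hdac7 was 0.53 ± 0.11 in B-KO and 0.61 ± 0.11 in WT (adjusted p = 0.00209 and 0.000721, limma), and that of Hdac9 0.56 ± 0.18 and 0.63 ± 0.18 (adjusted p = 0.021 and 0.0107). The B-KO call of Hdac9 was lost when B-KO GC replicate 1, B-KO GC replicate 3 or B-KO naive replicate 1 was left out, with values of 0.33 to 0.52 (adjusted p = 0.0623 to 0.0817). With B-KO naive replicate 3 alone as the B-KO naive group, the B-KO value was 0.25 for Hdac9 and 0.44 for Hdac7.

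Hdac5 (chr11:102195747-102230172), also of class IIa, fell. Hdac5 was at 79.1, 96.2 and 75.1 RPKM in B-KO GC against 158, 158 and 179.7 RPKM in B-KO naive B cells, and at 75.05, 72.0 and 102 RPKM in WT GC against 163, 183 and 166 RPKM in WT naive B cells. The GC libraries were all under the naive ones, and the log2 fold change was -0.98 ± 0.13 in B-KO and -1.05 ± 0.13 in WT (adjusted p = 0.000125 and 5.82e-05, limma). Hdac11 (chr6:91156815-91174683) fell further. The Hdac11 libraries of B-KO mice read 7.15, 8.65 and 8.14 RPKM in GC and 32.4, 23.8 and 24.8 RPKM in naive B cells, and those of WT mice 6.65, 6.23 and 6.41 RPKM in GC and 26.95, 23.0 and 26.9 RPKM in naive B cells. Its level in every GC library was far under every naive library. The log2 fold change was -1.63 ± 0.15 in B-KO and -1.84 ± 0.15 in WT (adjusted p = 1.48e-05 and 3.93e-06, limma), and 26.0% of the exon bases of its GENCODE transcript lie over Gm44002 and Gm14573 on the other strand. Hdac10, the class IIb enzyme that deacetylates polyamines, fell by 0.81 in B-KO and 0.94 in WT.

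**Figure D3:**
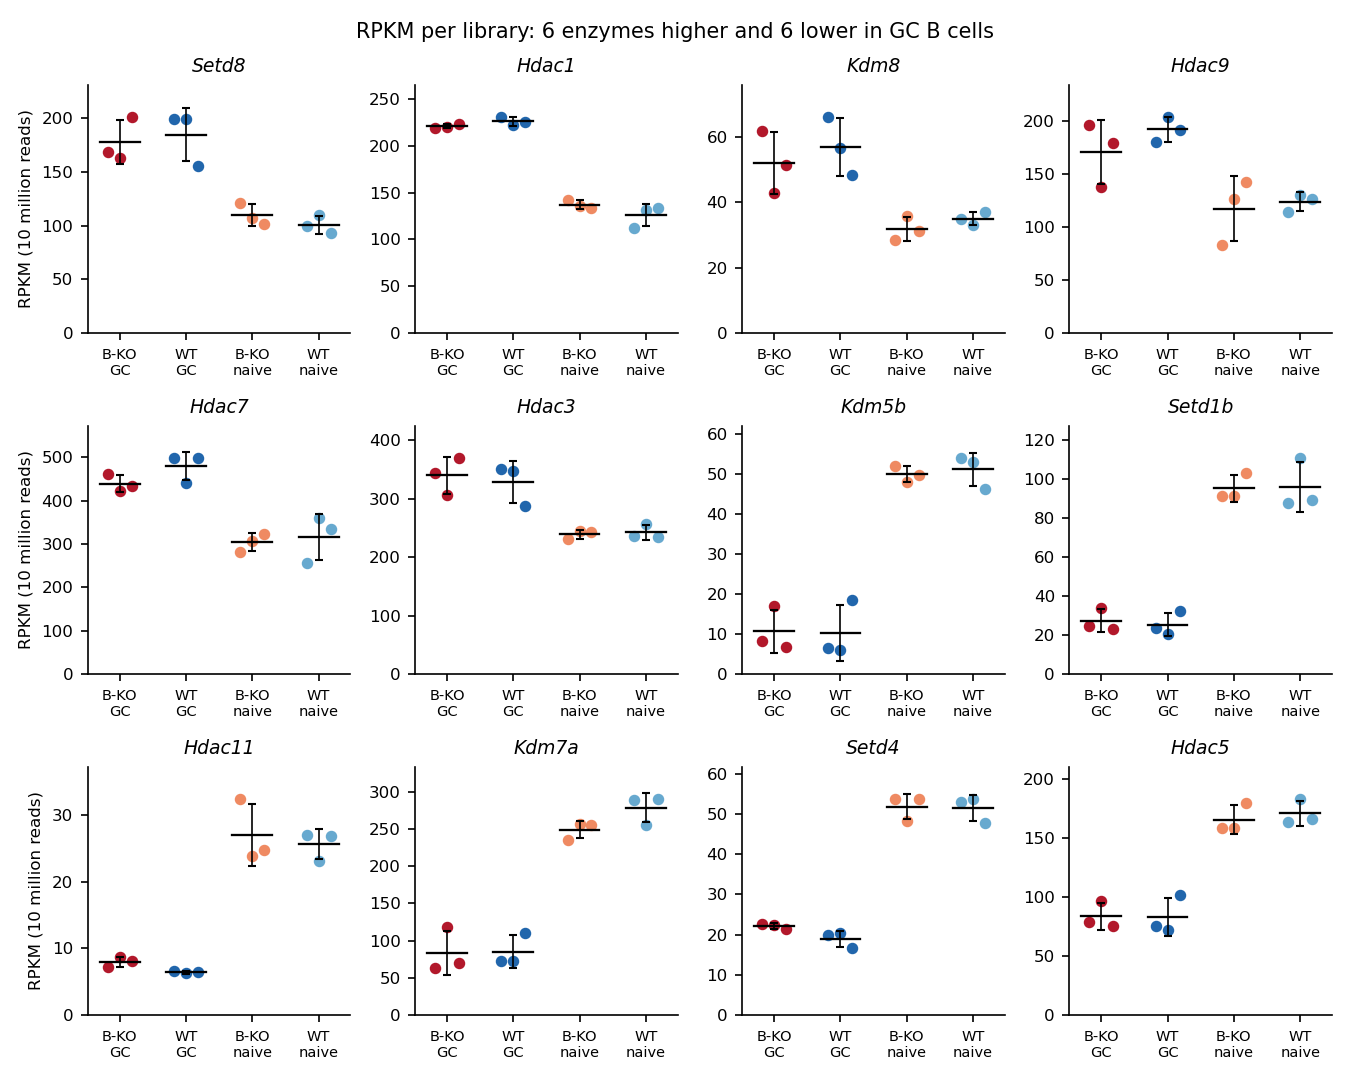
RPKM (y axis, from 0, scaled to 10000000 reads per library) in each of the 12 libraries for the 6 enzymes with the largest rise and the 6 with the largest fall in GC B cells of both genotypes. Points are replicates 1 to 3 from left to right, bars the mean ± SD. GC and naive points of a genotype are apart, except for Hdac9 in B-KO, as for Hdac1 at 222 to 231 RPKM in WT GC and 113 to 134 RPKM in WT naive B cells.

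Genes of the HDAC corepressor complexes were next, on a list also chosen with earlier results known. The list also holds Bcl6, which recruits such complexes and is not a subunit. Of 27 listed and tested, 15 were higher and 1 lower in B-KO, and 16 higher and 3 lower in WT, with medians of 0.30 and 0.32 on the log2 scale. The all-gene shares were 30% higher and 27.5% lower in B-KO, and 31.7% and 30.2% in WT. Bcl6 itself rose by 1.80 in B-KO and 1.87 in WT. It is also on the GC marker list used to check the sorts, so its rise is no separate result about the complexes. Mbd2, a methyl-CpG binding subunit of NuRD, rose by 1.65 and 1.75, Sap30, a subunit of the Sin3 complex, by 1.490 and 1.496, and Rbbp4, a histone chaperone of several of these complexes, by 1.05 and 1.23. Chd3, a NuRD remodeler, was lower in both (-1.10 and -0.94).

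The sirtuins, deacetylases and deacylases that use NAD, included no member that was called higher, against 30% of all genes tested in B-KO and 31.7% in WT. Sirt1 (chr10:63319005-63339035), a nuclear deacetylase of histones and transcription factors, was not called. In B-KO mice Sirt1 measured 139, 160.5 and 142 RPKM in GC and 133, 141 and 149 RPKM in naive B cells, and in WT mice 153, 151 and 165 RPKM in GC and 147, 141 and 154 RPKM in naive B cells. The libraries overlapped in both genotypes, and the fold change was 0.06 ± 0.07 in B-KO and 0.09 ± 0.07 in WT (adjusted p = 0.492 and 0.334, limma), with 95% intervals of -0.10 to 0.23 and -0.08 to 0.25. Sirt7 fell by 0.32 in B-KO and 0.47 in WT. Of the mitochondrial sirtuins, Sirt5, which removes succinyl and malonyl groups, fell by 1.12 and 0.89 and Sirt4 by 0.43 and 0.43, while Sirt3 was at -0.14 ± 0.10 and -0.07 ± 0.10 and not called (29.2% of its exon bases lie over Ric8a on the other strand). Sirt2, the cytosolic member, was at 0.03 ± 0.09 and -0.14 ± 0.09, and Sirt6 at -0.21 ± 0.08 in B-KO, where it was called, and -0.01 ± 0.08 in WT.

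Enzymes that work against or beside the members gave mixed results. Of 13 histone acetyltransferases, 3 were higher and 4 lower in B-KO and 2 higher and 4 lower in WT (medians -0.04 and 0.05). Hat1, which acetylates newly made histone H4, rose by 1.36 and 1.52, and Kat6b fell by 1.02 and 1.22. Of 16 tested among 21 listed symbols of other histone lysine methyltransferases, 6 were higher and 5 lower in B-KO and 8 higher and 5 lower in WT (medians 0.11 and 0.18). The share called was 53.8% in B-KO and 46.2% in WT for the acetyltransferases. It was 68.8% and 81.2% for these methyltransferases, against 57.5% and 62% of all genes tested. Ezh2, the H3K27 methyltransferase of Polycomb complex PRC2, rose by 2.13 and 2.54 and Whsc1 (Nsd2), an H3K36 methyltransferase, by 2.01 and 2.36, whereas Ezh1, the paralog of Ezh2, fell by 1.36 and 1.33. The rises of Ezh2, Whsc1 and Hat1 were larger than that of any of the 46 enzymes. All 20 cell cycle genes of the marker list were higher in GC B cells of both genotypes (medians 2.72 and 3.55), and the part of cell division in the enzyme values was not tested.

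The second question was whether loss of miR-146a changed the enzymes. No member was called, in either cell type. Between B-KO and WT GC B cells, limma called 0 of 46 members (2 at an unadjusted p under 0.05, against 5.66% of all genes), and 0.0073% of all genes tested. Between B-KO and WT naive B cells it called 0 of 46 (0 at an unadjusted p under 0.05, against 4.55% of all genes), and 0.0146% of all genes. Over both cell types together it called 0 of 46 (0 unadjusted, against 6% of all genes), and 0.0219% of all genes. limma voom on reads worked out from the RPKM also called 0 members in each. The members' log2 fold changes ran from -0.24 to 0.27 in GC B cells, with a median of -0.05 (all genes 0.03), and from -0.16 to 0.18 in naive B cells, with a median of -0.01 (all genes 0.02).

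A missed threshold does not show equality, so the intervals are given. The 95% interval of the B-KO minus WT difference lay within 1.5-fold in either direction for 43 of 46 members in GC B cells and for 43 of 46 in naive B cells. The exceptions in GC B cells were Kdm6b (-1.49 to 1.14 on the log2 scale), Kdm5b (-0.73 to 0.94) and Hdac11 (-0.06 to 0.60), and those in naive B cells Kdm6b (-1.28 to 1.35), Kdm5b (-0.86 to 0.80) and Kdm7a (-0.63 to 0.32). The 4 groups share 1 estimate of the spread per gene, so the wide naive intervals of these 3 demethylases come with the unlike GC libraries described above. For the same reason the intervals have the same width in both cell types. Against counting noise, replicate pairs had a chi-square per degree of freedom of 7.66 to 61.9 in GC and 7.81 to 21.6 in naive B cells. Intervals in GC B cells can thus be too narrow, and the 43 of 46 there is no proof of equality.

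**Figure D4:**
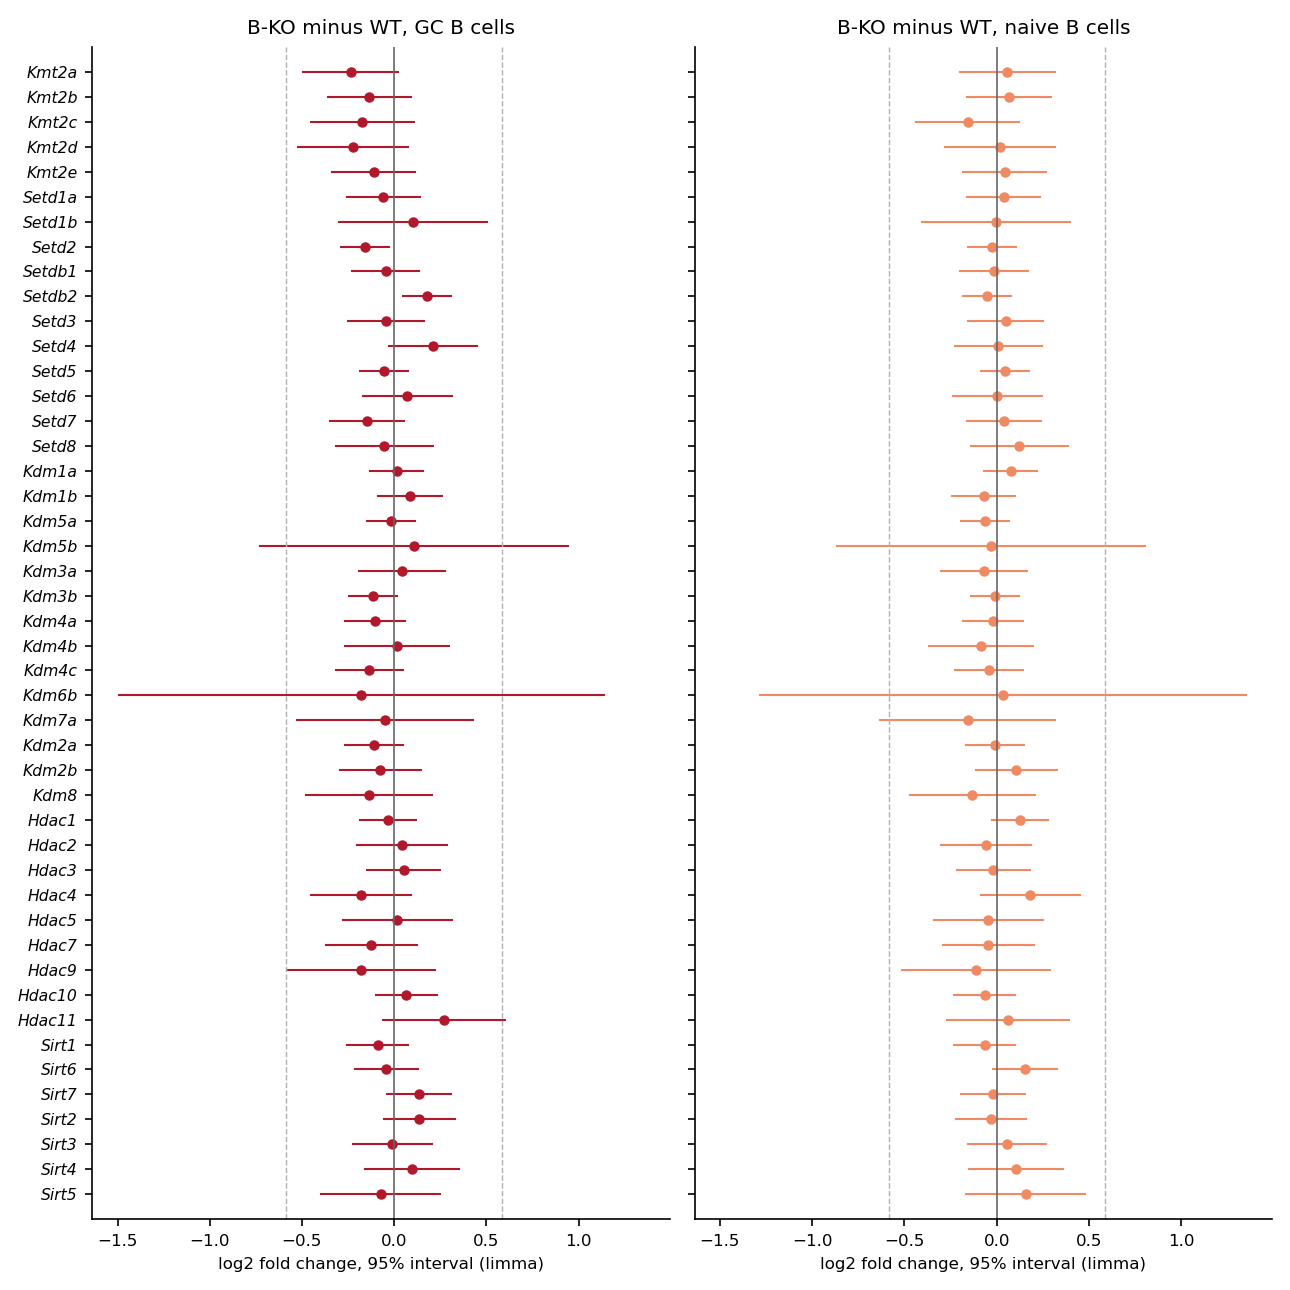
B-KO minus WT log2 fold change with its 95% interval (x axis, limma on log2(RPKM + 1)) for the 46 tested enzymes (rows) in GC B cells (left) and naive B cells (right). Dashed lines mark 1.5-fold in either direction. Points stay between -0.24 and 0.27, and the widest interval in both panels is that of Kdm6b.

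In GC B cells the smallest p belonged to Setdb2, an H3K9 methyltransferase (chr14:59402011-59440877). Setdb2 was at 136, 147 and 131 RPKM in B-KO GC against 120.1, 119.9 and 125 RPKM in WT GC B cells, and at 136, 138 and 136 RPKM in B-KO naive against 145, 137 and 145 RPKM in WT naive B cells. The B-KO GC libraries were all above the WT GC ones, and no such order held in naive B cells. The difference was 0.18 ± 0.06 in GC B cells (limma, adjusted p = 0.713) and -0.05 ± 0.06 in naive B cells. Setd2 was next, with all B-KO GC libraries under the WT ones (values above), a difference of -0.16 ± 0.06 (limma, adjusted p = 0.796). Kmt2a followed, at -0.24 ± 0.12 (limma, adjusted p = 0.894). Without overlap between the genotypes in GC B cells were 3 members that were higher in B-KO (Hdac11, Setd4 and Setdb2) and 5 that were lower (Hdac4, Kmt2a, Setd2, Setd5 and Setd7), 6.52% and 10.9% of the members, against 6.08% and 3.21% of all genes tested. Sex was not balanced between the genotypes in GC B cells, as given above. With the Y-linked sum as a covariate, 0 members were called higher and 0 lower in this comparison.

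In naive B cells the 3 smallest p belonged to Sirt6, Hdac1 and Hdac4. Sirt6, a nuclear sirtuin that deacetylates H3K9, is shown first. Sirt6 was at 70.3, 78.8 and 77.5 RPKM in B-KO GC against 81.4, 77.8 and 74.1 RPKM in WT GC B cells, and at 89.6, 83.8 and 88.3 RPKM in B-KO naive against 72.4, 82.0 and 80.8 RPKM in WT naive B cells. The B-KO naive libraries lay above the WT naive ones, with a difference of 0.15 ± 0.08 (limma, adjusted p = 1). Hdac1 differed by 0.13 ± 0.07 and Hdac4, the class IIa enzyme, by 0.18 ± 0.12, both with a limma adjusted p of 1. Without overlap were Sirt6, higher in B-KO, and Kdm5a, lower in B-KO, 2.17% of the members in each direction, against 6.3% and 3.08% of all genes. Over both cell types the smallest p were those of Setd2 (-0.09 ± 0.04), Kmt2c (-0.16 ± 0.09) and Hdac11 (0.17 ± 0.11), with adjusted p from 0.822 to 0.882 (limma).

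The genotype difference was also compared between the cell types. The interaction, B-KO minus WT in GC less the same in naive B cells, was called for 0 of 46 members (1 at an unadjusted p under 0.05, against 3.37% of all genes), and for 0.0219% of all genes. Setdb2 had the smallest p, with 0.23 ± 0.08 (limma, adjusted p = 1). Hdac4 came next. Hdac4 was at 27.7, 25.9 and 24.0 RPKM in B-KO GC against 24.7, 19.97 and 23.6 RPKM in B-KO naive B cells, and at 29.1, 28.4 and 30.9 RPKM in WT GC against 18.3, 21.9 and 19.5 RPKM in WT naive B cells. GC libraries lay above naive ones in WT by 0.55 ± 0.12 (adjusted p = 0.00249), B-KO gave 0.18 ± 0.12 (adjusted p = 0.219), and the difference between them was -0.36 ± 0.17 (limma, adjusted p = 1).

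The absence of a miRNA can also be asked of the transcripts that carry its sites. For each gene the longest 3′ UTR in GENCODE vM21 (GRCm38) was taken, and AGTTCTC (complementary to the seed) and GTTCTCA (the same run moved by 1 base, ending in A) were searched in it on the transcript strand. A match is a description and not a site. At least 1 match was held by 11 of the 46 tested members (23.9%), against 19.8% of the 11802 tested genes with a 3′ UTR found by symbol, and the 8-base form AGTTCTCA, which holds both, by 3 members (6.52%) against 4.39%. These 3 are shown with their surroundings, the match in capitals.
Kdm2b (chromosome 5): tctcaagtgttcAGTTCTCActttagttg
Kdm5a (chromosome 6): ggacccaggttcAGTTCTCAgcactacat
Setd3 (chromosome 12): agctcattctgaAGTTCTCAgcatagctg
The B-KO minus WT difference was -0.08 ± 0.10 for Kdm2b, -0.02 ± 0.06 for Kdm5a and -0.04 ± 0.09 for Setd3 in GC B cells, and 0.11 ± 0.10, -0.06 ± 0.06 and 0.05 ± 0.09 in naive B cells, none of them called. The other 8 with a match were Hdac2, Hdac9, Hdac11, Kdm2a, Kdm7a, Kdm8, Kmt2d and Setd8. The 11 with a match had a median difference of -0.05 in GC B cells (2 of 11 above 0) and the 35 without a match -0.04 (15 of 35 above 0). In naive B cells both medians were -0.01 (5 of 11 and 16 of 35 above 0).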

How the data were processed

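Total RNA of sorted B cells was sequenced in 12 libraries (Illumina HiSeq, TruSeq kit), and the study's methods name poly(A) selection. The authors aligned reads with STAR (2.2.0c) and deposited RPKM per RefSeq transcript, made with HOMER (version not given in the sources used here) by counting exon reads of both strands and scaling each library to 10000000 reads. Reads of a gene and of an antisense neighbor can therefore not be told apart. Coordinates are mm10, as the table gives them, although the submitters' processing notes also name mm9. Groups and replicate numbers came from the sample labels, and the study states 3 biological replicates for each group, so p-values measure the spread between those samples.

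The members and gene lists were chosen with earlier results of these data known. Per symbol the transcript with the highest mean was used, 32 members had 1 transcript and 15 had several. The rule met 52 symbols, of which 5 on X or Y were left out. A reading of the rule that also asks a digit or b after Kmt2 drops Kmt2a, Kmt2c, Kmt2d and Kmt2e and leaves 43.

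log2(RPKM + 1) was fitted with limma 3.58.1 (R 4.3.3, trend, 4 group means) for the 13704 genes that reached 1 RPKM in 3 or more libraries. Tests were two-sided with Benjamini-Hochberg adjustment over all genes and a threshold of 0.05. The pseudocount understates changes of low genes. The fit was tested on simulated data. Read numbers recovered from RPKM and transcript length were whole (tolerance 0.1) in 100% of checkable values, and limma voom was run on them. The smallest member count in a library was 42 reads, and intervals describe replicate spread.

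Values in every library are given for the 6 members with the largest rise and the 6 with the largest fall called in both genotypes, the 3 with the smallest p in each genotype comparison, and 12 members known in GC B cells or basic to their class. Up to 4 genes of each partner list were named by size of change. Alternatives were other pseudocounts (0.1 and 5), filters, scalings, voom, only the groups compared, the replicate block, a Y-linked covariate, the longest transcript, each library left out, and sets of libraries left out, of which 2 sets were chosen after seeing the data.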

Additional observations from a re-analysis of the deposited data

How the results depend on the processing

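Over 27 alternatives, the counts of members called stayed within 1.5 times of those reported, but in WT the order of higher and lower turned under the strict reading of the name rule (16 higher, 15 lower). In B-KO, 9 to 14 members were higher and 14 to 21 lower in GC B cells, in WT 14 to 17 were higher and 15 to 21 lower, and every genotype comparison and the interaction gave 0 members. Of 1352 values of named members under these alternatives, 1310 kept their direction and their side of the threshold, 18 lost a call, 13 gained one and 11 changed direction. The changes of direction were in Sirt1 and Kdm6b, neither of which was called with all libraries. Without B-KO naive replicates 1 and 2, replicate 3 was alone in that group. Without the 3 GC libraries with Y-linked reads, B-KO GC replicate 3 was alone. The calls of these settings are part of the totals above and involve an unreplicated group.

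For Sirt1, quantile normalization gave -0.0286 in B-KO and -0.0036 in WT. Without B-KO naive replicates 1 and 2 it gave -0.0205 in B-KO, and without B-KO GC replicate 2, alone or together with WT GC replicate 3, -0.0004, with a range of -0.0004 to 0.1042 in B-KO when 1 library was left out. For Kdm6b the range over single libraries left out was -0.8515 to 0.3776 in B-KO, with 0.1629 without B-KO GC replicate 3, and -0.4929 to 0.4728 in WT. The Y-linked covariate gave -0.5069 in WT, and -0.4929 was also the WT value without B-KO GC replicate 2 and WT GC replicate 3, and without the 3 GC libraries that held Y-linked reads. Without those 3, Kdm6b in B-KO was at -0.6368. Both sets hold the only 2 GC libraries above the naive ones, so their sign and calls follow from the choice. The causes were not tested.

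Calls lost were those of Hdac9 (7 settings), Setd2 (6), Hdac7 (1) and Kmt2d (1) in B-KO and Kmt2d (3) in WT. Calls gained were those of Hdac2 (5 in B-KO, 4 in WT), Kmt2a (2) and Kdm6b (2) in B-KO. Kdm6b in WT, counted among the changes of direction, passed the threshold as lower in the same 2 settings. With the replicate number as a block, 12 members were higher and 17 lower in B-KO, 17 higher and 18 lower in WT, and 0 were called between genotypes. Same-numbered libraries did not deviate together (correlations of -0.57 to 0.15). Deviations were taken within groups of 3, and the 2 GC libraries set apart above carry different numbers. The correlations therefore cannot exclude a shared litter or sort day, and the labels give only a number. Without B-KO naive replicate 3, 32 genes were called higher and 1 lower in B-KO naive B cells over all genes, against 2 and 0 with it, and 0 members. Levels under about 10 RPKM, as of Hdac11 in GC B cells and Kdm4d throughout, are those where depth and the pseudocount can weigh most. Kdm5b was at 6.02 to 18.4 RPKM in the GC libraries, with 127 to 345 reads. The SE of its GC minus naive fold change was 0.38, against 0.15 for Hdac11 with 43 to 79 reads.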

Other observations

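The symbols on the sex chromosomes were left out by the rule that chose the members, and sex was not balanced over the libraries. Hdac6, an X-linked class IIb tubulin deacetylase, was at 67.5 to 84.1 RPKM in B-KO GC against 52.2 to 59.1 RPKM in B-KO naive B cells, and at 72.4 to 79.4 RPKM in WT GC against 47.5 to 55.0 RPKM in WT naive B cells. Hdac8, an X-linked class I enzyme, was at 102 to 125 RPKM in B-KO GC and 53.2 to 56.0 RPKM in B-KO naive B cells, and at 81.3 to 113 RPKM in WT GC and 47.7 to 55.5 RPKM in WT naive B cells. The GC and naive libraries of these enzymes did not overlap in either genotype.

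Kdm5c and Kdm6a are demethylases of H3K4 and H3K27 that are known to escape X inactivation. Kdm6a was at 128, 160 and 238 RPKM in B-KO GC B cells and 248, 272 and 151 RPKM in WT GC B cells. The 3 low values belong to the 3 libraries with Y-linked reads, and Kdm5c was lowest in the same 3 (119, 130 and 124 RPKM, the other GC libraries 180 to 194 RPKM). In naive B cells Kdm5c was at 187 to 199 RPKM in B-KO and 192 to 198 RPKM in WT. Its Y-linked relative Kdm5d was at 101, 84.5 and 206 RPKM in those libraries and at most 0.053 RPKM in the other 9.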
